A study of Mus musculus with 6 samples.

Results

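The genes of cholesterol synthesis, and of its control by the sterol regulatory element-binding proteins (SREBPs), were followed in RAW264.7, a virus-transformed mouse macrophage cell line. The members were a fixed list of 28 gene symbols, found by name in a table of 18019 genes. They comprised 19 enzymes of cholesterol synthesis and its supply of acetyl-CoA, 7 genes of SREBP control and sterol handling, and 2 genes of fatty acid synthesis. All 28 were present and all 28 were among the 9728 genes tested. One group of cells received lipopolysaccharide (LPS, a bacterial product that activates macrophages) together with TPPU, an inhibitor of soluble epoxide hydrolase (n = 3). The control group received LPS and no TPPU (n = 3). LPS exposure of both groups comes from the design text. The labels' genotype field holds only the treatment name, and neither dose nor duration of either agent is stated in what was used here. Per the series title, the study asks about inflammatory macrophages in osteoarthritis of the jaw joint. A single cell line grown in culture stands in for macrophages of the joint. The labels give 1 batch and do not say if replicates were separate cultures, so each p-value reflects only how these 6 libraries scatter, possibly for technical reasons.

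Cholesterol is built from acetyl-CoA by way of mevalonate, the isoprenoid farnesyl diphosphate, squalene and lanosterol. When sterols in the endoplasmic reticulum run low, the escort protein SCAP carries SREBP to the Golgi, where proteases release the part that enters the nucleus and turns on the genes of these enzymes. INSIG proteins hold SCAP and SREBP back when sterols are plentiful. In macrophages the pathway is known to be tied to inflammatory activation and to the balance between sterol synthesis and export.

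Levels are in FPKM (fragments per kilobase of transcript, scaled to the depth of the library), which are per length and so can be compared between genes. The depth read from the steps of the low values was 18.4 to 23.0 M fragments in TPPU libraries and 17.9 to 22.7 M in control libraries, where 1 fragment in 1 kb is worth 0.0436 to 0.0558 FPKM. Mitochondrially encoded transcripts made up 0.914%, 1.54% and 1.85% of summed FPKM in TPPU replicates 1 to 3, beside 1.46%, 1.73% and 0.371% in control replicates 1 to 3. Control replicate 3 was the lowest by this measure. All 8 macrophage markers were present, with a summed level of 2033 to 2155 FPKM in TPPU libraries and 1920 to 2307 FPKM in control libraries. For fibroblasts, epithelium, endothelium, T cells, B cells and chondrocytes, the markers of each single cell type summed to at most 1.62 FPKM in any TPPU library and 4.05 FPKM in any control library. Only 1 of 3 T cell markers (Cd4), 2 of 3 B cell markers and 2 of 3 chondrocyte markers had values, so these sums are incomplete. The 3 hepatocyte markers, which a macrophage line should lack, were all detected and summed to 76.4 to 139 FPKM with TPPU, against 32.1 to 67.3 FPKM in controls. Alb, which encodes serum albumin, measured 66.4, 113 and 98.4 FPKM in TPPU replicates 1 to 3, against 24.5, 38.1 and 59 FPKM in control replicates 1 to 3. The part of these transcripts in the values below was not tested, and in bulk RNA more cells of a type and more RNA per cell cannot be told apart. The labels also tie the TPPU libraries to columns called sh-LIS1 in another table, which was not used here. Pafah1b1, which encodes LIS1, measured 10.7, 13.5 and 14.2 FPKM in TPPU replicates 1 to 3 and 11.7, 14.2 and 6.52 FPKM in control replicates 1 to 3, so the groups overlapped.

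Cholesterol genes were expressed along the whole pathway, and none of the 28 passed the test between TPPU and control. In limma over 9728 genes, 0 members were higher and 0 lower at an adjusted p under 0.05, as for all genes (0% in each direction), and the smallest adjusted p of a member was 0.564. At an unadjusted p under 0.05, 2 of the 28 were higher (7.14%, against 4.19% of all tested genes) and 0 were lower (3.7% of all tested genes). The 2, Acat2 and Nsdhl, became 0 without TPPU replicate 1 and 0 without control replicate 2, 1 without TPPU replicate 3, and 6 without control replicate 3. The estimated changes leaned to one side. On the log2(FPKM + 1) scale, 23 members had a positive difference and 5 a negative one (82.1% positive, against 54.4% of all tested genes), with a median of 0.09 beside 0.02 over all tested genes. The members' median deviation from the 6-library mean was 0.07, 0.03 and 0.05 in TPPU replicates 1 to 3. In control replicates 1 to 3 it was -0.07, -0.08 and 0.06, so control replicate 3 lay within the TPPU range. The members were measured in the same 6 libraries, so their signs are not independent. In 4 members, Acat2, Nsdhl, Tm7sf2 and Acaca, all TPPU values lay above all control values (14.3%, against 7.48% of tested genes). In 0 members did all TPPU values lie below all control values (7.88% of tested genes).

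**Figure D1:**
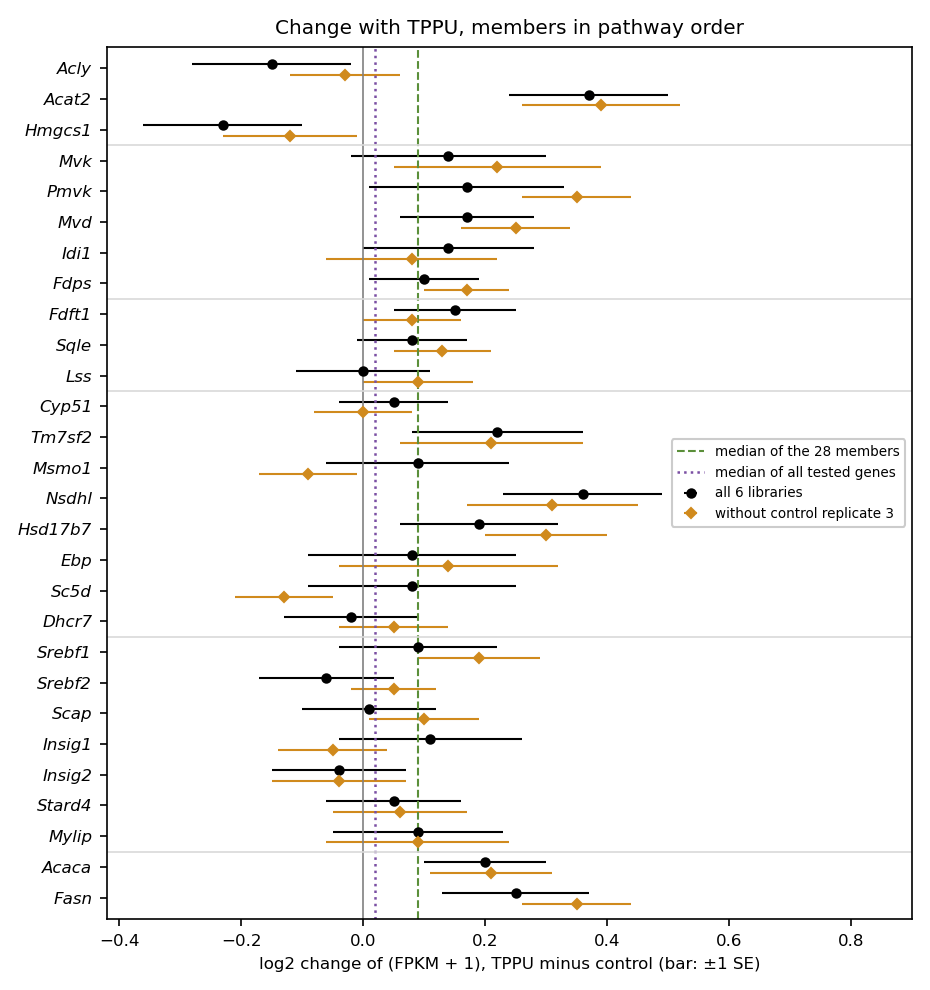
Estimated change of each member, TPPU minus control, in log2(FPKM + 1), with members in pathway order from top to bottom and bars of 1 SE. Black circles use all 6 libraries and orange diamonds leave out control replicate 3, and the dashed and dotted lines mark the medians of the 28 members (0.09) and of all tested genes (0.02). Most circles lie to the right of 0, and Acat2 and Nsdhl lie farthest.

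The separation of the groups changed most when control replicate 3 was left out. Without it, all TPPU values lay above both remaining controls in 13 of 28 members (46.4%, against 17.1% of 9631 tested genes). They lay below both in 2 members, Msmo1 and Sc5d (7.14%, against 12.5%). The 13 were Acat2, Pmvk, Mvd, Fdps, Sqle, Lss, Tm7sf2, Nsdhl, Hsd17b7, Srebf1, Srebf2, Acaca and Fasn. Leaving out each of the other 5 libraries in turn gave 5 or 6 members above all controls, 17.9% to 21.4% of the members against 11% to 14.5% of tested genes. The shares were closest without TPPU replicate 1, at 17.9% of the members and 14.5% of tested genes. With control replicate 3 left out, 6 members were higher at an unadjusted p under 0.05 (6.93% of tested genes) and 0 lower. In that fit 0 members passed with adjustment (smallest limma adjusted p = 0.265). The median of the members was 0.1 and that of all tested genes 0.02, with 21 positive and 7 negative changes. The mitochondrial share of control replicate 3 is given above, and its part in these values was not tested.

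The promoters of most members held 2 common sequence words. RefSeq start sites (GRCm38.p6, the assembly of mm10) were found for 24 of the 28 members (all but Fdft1, Fdps, Sqle and Stard4), and the 250 bases before each start were searched on both strands for 3 words. The CCAAT box (CCAAT), a binding site of the factor NF-Y, was present for 20 of the 24 members (83.3%), against 40.8% of 7703 tested genes with a start site and 33.8% of all 32851 promoters. The GC box (GGGCGG), bound by Sp1, was present for 21 of the 24 (87.5%), against 65.6% of those tested genes and 32.7% of all promoters. Both words were present for 18 members (75%) and for 27.5% of the tested genes, not necessarily before the same start site. NF-Y and Sp1 are textbook partners of SREBP. The core of the sterol regulatory element that SREBP binds (TCACNCCAC) was found in this window for 1 member, Hmgcs1 (4.17%, against 1.3% of those tested genes and 1.05% of all promoters). These are matches of letters, and no match says only that the word is not in this window. A gene with several start sites was counted once if any had a match.

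The promoter of Hmgcs1 is shown because it alone among the 24 held the sterol element core, which begins 137 bases before the start. Those of Nsdhl, Tm7sf2 and Acat2 are shown because their groups did not overlap. The windows follow RefSeq starts, which differ from the GENCODE positions given elsewhere for these genes. GENCODE puts the 5' end of Tm7sf2 at 6068373, so its window lies inside the gene. It also lies inside Vps51 (6067842 to 6077231, same strand), so it may not be a promoter. The Acat2 window reaches into the gene, which ends at 12960747. Capitals mark the matches of the 3 words on either strand, and no base was shared by 2 matches.
Hmgcs1, chr13:119690101-119690350, plus strand: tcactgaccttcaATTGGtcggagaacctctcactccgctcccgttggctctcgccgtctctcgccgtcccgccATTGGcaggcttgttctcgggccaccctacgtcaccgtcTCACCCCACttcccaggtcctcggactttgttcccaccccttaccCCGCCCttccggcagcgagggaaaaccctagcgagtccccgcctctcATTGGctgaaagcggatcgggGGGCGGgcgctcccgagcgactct
Nsdhl, chrX:72918271-72918520, plus strand: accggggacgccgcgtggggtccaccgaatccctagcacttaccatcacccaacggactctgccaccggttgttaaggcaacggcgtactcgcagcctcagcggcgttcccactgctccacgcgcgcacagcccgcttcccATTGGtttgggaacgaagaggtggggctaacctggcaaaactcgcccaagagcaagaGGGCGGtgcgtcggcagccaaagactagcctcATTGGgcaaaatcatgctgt
Tm7sf2, chr19:6067851-6068100, minus strand: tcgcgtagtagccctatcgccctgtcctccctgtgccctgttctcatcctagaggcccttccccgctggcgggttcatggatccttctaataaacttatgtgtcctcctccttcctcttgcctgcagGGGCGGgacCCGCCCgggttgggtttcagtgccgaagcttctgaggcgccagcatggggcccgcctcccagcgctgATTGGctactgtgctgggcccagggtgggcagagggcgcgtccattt
Acat2, chr17:12960726-12960975, minus strand: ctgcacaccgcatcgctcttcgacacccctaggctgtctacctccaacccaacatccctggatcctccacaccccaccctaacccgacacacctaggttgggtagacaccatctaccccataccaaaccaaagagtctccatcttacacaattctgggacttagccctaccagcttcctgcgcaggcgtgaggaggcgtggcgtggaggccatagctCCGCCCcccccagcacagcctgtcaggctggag
Hmgcs1 held 3 CCAAT boxes and 2 GC boxes, Nsdhl 2 and 1, Tm7sf2 1 and 2, and Acat2 0 and 1. Acaca, the fourth member whose groups did not overlap, held neither word. Hmgcs1, with the sterol element core, was the member with the lowest estimated change.

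**Figure D2:**
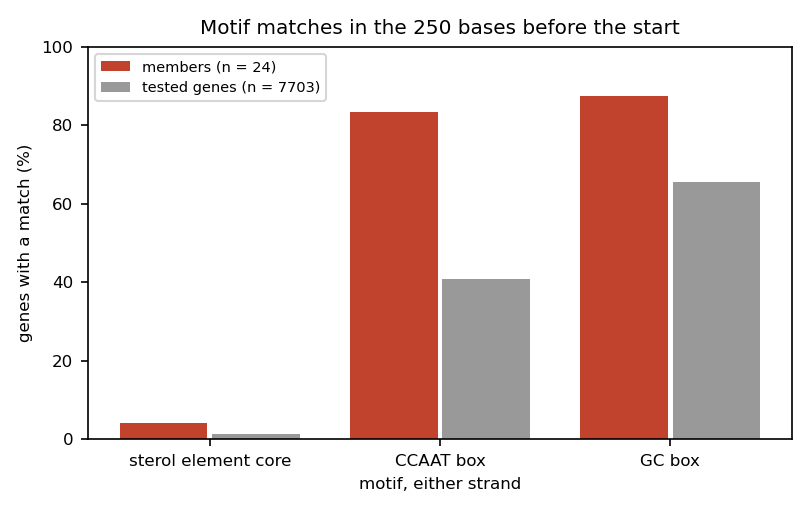
Share of genes with at least 1 match in the 250 bases before a RefSeq start, in percent, for the 24 members with a start site (red) and 7703 tested genes (grey). The CCAAT box was present for 83.3% of the members against 40.8% of tested genes, and the GC box for 87.5% against 65.6%.

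Levels along the pathway ran from about 1 to about 77 FPKM. Fdps, which makes farnesyl diphosphate, was the highest member, at 77 ± 1.84 FPKM with TPPU and 72 ± 6.39 FPKM in controls (SD, n = 3 each). Srebf2, Acly and Insig1 followed. Tm7sf2, a reductase acting after lanosterol that shares its role with another enzyme, was the lowest, at 1.49 ± 0.292 FPKM with TPPU and 1.13 ± 0.0465 FPKM in controls. Mylip, Mvk and Acaca were the next lowest, with means below 6 FPKM in both groups. Among enzymes of the lanosterol branch, Cyp51, Sc5d, Msmo1 and Dhcr7 had means of 23 to 28.8 FPKM in both groups, and these neighbours did not differ beyond the spread of the controls.

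**Figure D3:**
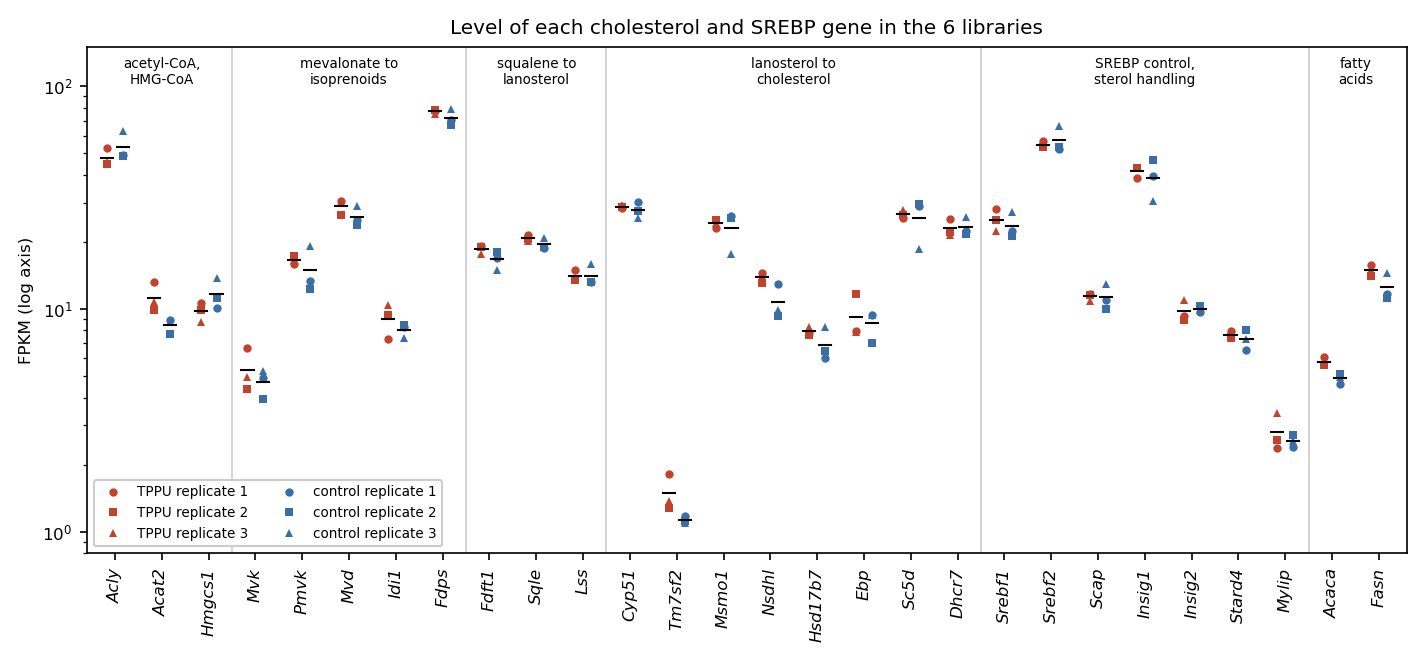
FPKM (log axis) of each member in each library, with members in pathway order and the 6 stages separated by lines. Red symbols are TPPU libraries and blue symbols control libraries, a circle, square and triangle stand for replicates 1, 2 and 3, and the bar is the mean. Fdps is highest at 77 FPKM with TPPU and 72 FPKM in controls, and Tm7sf2 is lowest.

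The 3 enzymes that supply the pathway had estimates of both signs, 1 positive and 2 negative. Acat2, the cytosolic thiolase that joins acetyl-CoA units, lies on chromosome 17 (12942890 to 12960747, mm10). It measured 13.2, 9.84 and 10.7 FPKM in TPPU replicates 1 to 3, against 8.87, 7.7 and 8.75 FPKM in control replicates 1 to 3. Every TPPU value lay above every control value, and TPPU replicate 1 was the highest. The change was 0.37 (SE 0.13, unadjusted p = 0.0192, limma adjusted p = 0.564), and 0.26 to 0.45 over the alternatives (limma adjusted p from 0.17 to 0.988). Acat3, its neighbour and near copy on that chromosome, was at 0.0776 to 0.361 FPKM with TPPU and 0.0863 to 0.238 FPKM in controls, and how shared reads were split is not given. Hmgcs1, which forms HMG-CoA, measured 10.6, 9.93 and 8.69 FPKM with TPPU, against 10.1, 11.2 and 13.7 FPKM in controls. Its groups overlapped, with the lowest value in TPPU replicate 3 and the highest in control replicate 3. The change of -0.23 (SE 0.13, limma adjusted p = 0.681) was -0.12 (SE 0.11) without control replicate 3. Acly, which makes acetyl-CoA from citrate, measured 52.8, 44.8 and 45.7 FPKM with TPPU and 48.9, 48.4 and 62.8 FPKM in controls. The highest value was again in control replicate 3, and the change of -0.15 (SE 0.13) was -0.03 (SE 0.09) without it.

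All 5 enzymes from mevalonate to farnesyl diphosphate had positive estimates, between 0.1 and 0.17, and 0 of the 5 passed (smallest limma adjusted p = 0.717). Pmvk, phosphomevalonate kinase, measured 15.9, 17.2 and 16.6 FPKM with TPPU, against 13.3, 12.3 and 19.1 FPKM in controls. Control replicate 3 lay above every TPPU library, and the other controls lay below every one. Its change was 0.17 (SE 0.16, limma adjusted p = 0.785) with all libraries and 0.35 (SE 0.09, limma adjusted p = 0.265) without control replicate 3. Over all alternatives it ran from 0.05 to 0.37, with adjusted p from 0.0927 upward. Mvd, the decarboxylase of the next step, measured 30.6, 26.5 and 30.2 FPKM with TPPU and 25, 23.7 and 28.9 FPKM in controls. Control replicate 3 lay within the TPPU range and the other controls below it, and the change was 0.17 (SE 0.11), or 0.25 (SE 0.09) without that library. Fdps measured 77.6, 78.4 and 74.9 FPKM with TPPU and 70.2, 66.7 and 79.1 FPKM in controls, with control replicate 3 the highest of all. The change was 0.1 (SE 0.09), or 0.17 (SE 0.07) without that library. Fdps shares 1124 exon bases on the same strand with Gm43738, so its level is uncertain. Mvk, mevalonate kinase, spanned 4.36 to 6.67 FPKM with TPPU and 3.92 to 5.28 FPKM in controls. Idi1, the isomerase that readies the isoprenoid units, spanned 7.35 to 10.4 FPKM and 7.39 to 8.44 FPKM, and it differed from the other 4 in having its lowest value in TPPU replicate 1. Its paralog Idi2 was at most 0.136 FPKM in TPPU libraries and 0.0465 FPKM in controls.

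The 3 enzymes from farnesyl diphosphate to lanosterol differed little. Fdft1, squalene synthase, measured 18.6 ± 0.843 FPKM with TPPU and 16.7 ± 1.6 FPKM in controls (SD, n = 3 each), a change of 0.15 (SE 0.1, limma adjusted p = 0.718). Leaving out control replicate 3 gave 0.08 (SE 0.08). Its exons share 774 bases with Ctsb on the opposite strand, a cathepsin gene at 640 to 674 FPKM with TPPU and 700 to 829 FPKM in controls. The libraries kept the strand per the labels, but whether the counting used it is not given, so Fdft1 is uncertain. Scap (985 bases), Hmgcs1 (557), Lss (381) and Idi1 (323) also share exon bases with a gene on the opposite strand. The gene opposite Hmgcs1 was at most 0.0289 FPKM, and no level was available for those opposite Scap, Lss and Idi1. Sqle, squalene epoxidase, measured 21.4, 20.7 and 20.1 FPKM with TPPU and 18.8, 19 and 20.9 FPKM in controls, a change of 0.08 (SE 0.09), or 0.13 (SE 0.08) without control replicate 3. Lss, which closes the ring to lanosterol, averaged 14.1 FPKM in both groups (SD 0.744 with TPPU and 1.56 in controls), a change of 0 (SE 0.11), or 0.09 (SE 0.09) without control replicate 3.

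Of the 8 enzymes from lanosterol to cholesterol, 7 had positive estimates and 1, Dhcr7, a negative one, and 0 passed. Nsdhl, a dehydrogenase that helps remove the methyl groups of lanosterol, lies on chromosome X (72918557 to 72958514). It measured 14.5, 13.1 and 14 FPKM in TPPU replicates 1 to 3, against 12.9, 9.25 and 9.84 FPKM in control replicates 1 to 3. The groups did not overlap, with control replicate 1 just below TPPU replicate 2. The change was 0.36 (SE 0.13, unadjusted p = 0.0255, limma adjusted p = 0.564), and 0.16 to 0.49 over the alternatives (limma adjusted p from 0.366 upward). Tm7sf2 measured 1.82, 1.27 and 1.37 FPKM with TPPU, against 1.18, 1.11 and 1.09 FPKM in controls, a change of 0.22 (SE 0.14, limma adjusted p = 0.714). TPPU replicate 1 stood well above the other libraries. The change was 0.13 without it, 0.11 without both libraries lowest in mitochondrial transcripts and 0.36 with a pseudocount of 0.1. Tm7sf2 shares 532 exon bases on the same strand with Vps51, a vesicle-tethering gene at 7.22 to 8.84 FPKM with TPPU and 7.67 to 9.01 FPKM in controls, so its low level is uncertain. Hsd17b7, a ketoreductase of the same methyl-removing complex as Nsdhl, measured 7.78, 7.65 and 8.33 FPKM with TPPU and 5.99, 6.45 and 8.26 FPKM in controls. Here control replicate 3 stood among the TPPU libraries, and the change was 0.19 (SE 0.13, limma adjusted p = 0.72) with all libraries and 0.3 (SE 0.1, limma adjusted p = 0.334) without it.

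Msmo1 and Sc5d, a pair of oxidases that use oxygen and iron, showed the opposite place of that library. Msmo1, the methyl oxidase, measured 23.1, 25.1 and 24.2 FPKM with TPPU, against 26, 25.5 and 17.6 FPKM in controls. Sc5d, which sets the ring double bond, measured 25.5, 26.5 and 27.8 FPKM with TPPU, against 29, 29.5 and 18.5 FPKM in controls. In both genes control replicate 3 was the lowest of all libraries and the other controls were the highest. Their changes of 0.09 (SE 0.15) and 0.08 (SE 0.17) were -0.09 (SE 0.08) and -0.13 (SE 0.08) without it. Cyp51, the demethylase of lanosterol, measured 28.8 ± 0.411 FPKM with TPPU and 27.9 ± 2.28 FPKM in controls (SD, n = 3 each). Ebp, the sterol isomerase, spanned 7.91 to 11.7 FPKM with TPPU and 7.02 to 9.43 FPKM in controls. Dhcr7, the last reductase of one branch, measured 23 ± 2.09 FPKM with TPPU and 23.3 ± 2.29 FPKM in controls, a change of -0.02 (SE 0.11). The groups overlapped in all 3. Cyp51 shares 166 exon bases on the opposite strand with Akap9, which was at 3.42 to 4.13 FPKM over the 6 libraries.

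The genes that govern SREBP had small estimates, between -0.06 and 0.11, and 0 of the 7 regulators and sterol handlers passed (smallest limma adjusted p = 0.854). Srebf2, the SREBP chiefly tied to cholesterol genes, measured 56.7, 53.5 and 53.4 FPKM with TPPU, against 52.3, 53.1 and 66 FPKM in controls. All but control replicate 3 lay within a narrow band, and the change was -0.06 (SE 0.11), or 0.05 (SE 0.07) without that library. Srebf1, tied more to fatty acid genes, measured 28, 25.1 and 22.4 FPKM with TPPU and 22.4, 21.3 and 27.2 FPKM in controls, a change of 0.09 (SE 0.13). The change was 0.19 (SE 0.1) without control replicate 3 and 0.01 (SE 0.14) without TPPU replicate 1. Its transcripts include an isoform pair that gene-level values do not separate, and it shares 109 exon bases on the opposite strand with Rai1, at 1.54 to 2.4 FPKM over the 6 libraries. Scap, the escort, measured 11.7, 11.5 and 10.9 FPKM with TPPU and 11, 10 and 12.9 FPKM in controls, a change of 0.01 (SE 0.11), or 0.1 (SE 0.09) without control replicate 3. Insig1, itself a well-known target of SREBP, measured 38.9, 42.8 and 43.1 FPKM with TPPU and 39.7, 46.5 and 30.6 FPKM in controls. The lowest and highest values were both controls, and the change of 0.11 (SE 0.15) was -0.05 (SE 0.09) without control replicate 3. Insig2, the paralog that SREBP does not drive in the same way, was lower in level, at 9.33, 8.94 and 11 FPKM with TPPU and 9.7, 10.3 and 9.93 FPKM in controls, a change of -0.04 (SE 0.11). Stard4, a cytosolic sterol carrier, measured 7.61 ± 0.298 FPKM with TPPU and 7.31 ± 0.747 FPKM in controls. Mylip, a ubiquitin ligase for lipoprotein receptors that the sterol sensor LXR turns on, measured 2.79 ± 0.544 FPKM with TPPU and 2.55 ± 0.155 FPKM in controls (SD, n = 3 each). Both overlapped between the groups.

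The 2 enzymes of fatty acid synthesis had positive estimates with little overlap, and neither passed. Acaca, acetyl-CoA carboxylase, lies on chromosome 11 (84129672 to 84401651). It measured 6.06, 5.62 and 5.58 FPKM in TPPU replicates 1 to 3, against 4.6, 5.1 and 4.92 FPKM in control replicates 1 to 3. The groups did not overlap and both had a narrow spread. The change was 0.2 (SE 0.1, unadjusted p = 0.0885, limma adjusted p = 0.651), and 0.17 to 0.23 over the alternatives (limma adjusted p from 0.158 upward). Fasn, fatty acid synthase, also on chromosome 11 (120805846 to 120824547), measured 15.8, 14 and 15 FPKM with TPPU, against 11.7, 11.2 and 14.5 FPKM in controls. Control replicate 3 alone reached into the TPPU range. The change was 0.25 (SE 0.12, limma adjusted p = 0.633), or 0.35 (SE 0.09, limma adjusted p = 0.269) without that library, and its adjusted p ran from 0.0858 upward over the alternatives.

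**Figure D4:**
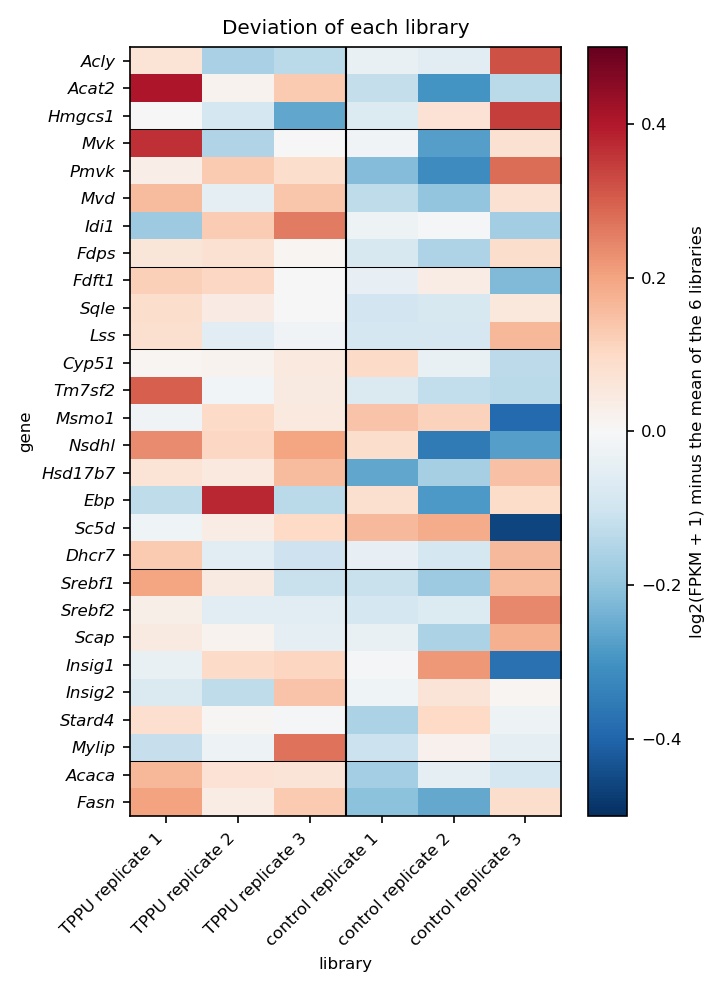
Deviation of each library from the mean of the 6 libraries, in log2(FPKM + 1), for each member in pathway order; red is above the mean and blue below it, with TPPU libraries left of the line and control libraries right of it. The lowest value is Sc5d in control replicate 3, at -0.46, and the highest is Acat2 in TPPU replicate 1, at 0.4.

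Among the members, control replicate 3 held high and low values alike. It held the highest value of 8 members and the lowest of 6, with a median absolute deviation from the 6-library mean of 0.15, against 0.06 to 0.12 in the other 5 libraries. TPPU replicate 1 held the highest value of 10 members and control replicate 2 the lowest of 10. Relative to both other controls, control replicate 3 was higher in 15 members, whose transcripts had a median GC content of 54.5%, and lower in 7, with a median of 46.2%. Over the 28 members, its difference from the mean of control replicates 1 and 2 had a Pearson's r of 0.55 and a Spearman's rho of 0.51 with GC content. Over 9522 tested genes the r was 0.58 and the rho 0.63. Other libraries also followed GC content. Over the members, the deviation from the 6-library mean had an r of 0.46 with GC content in TPPU replicate 1 and -0.55 in control replicate 2, beside 0.47 in control replicate 3. These are descriptions across genes, which share the same library and are not independent. Members were neither GC-rich nor GC-poor as a set, with a median of 50.3% (range 41.9% to 59.6%), beside 50% over the tested genes. With the GC trend taken out of each library, the median change of the members stayed at 0.09 with 22 of 28 positive. The signs of Sc5d, Dhcr7 and Stard4 turned in that fit. Its median and positive share over all tested genes are not given, and the part of GC content in the lean was not tested.

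**Figure D5:**
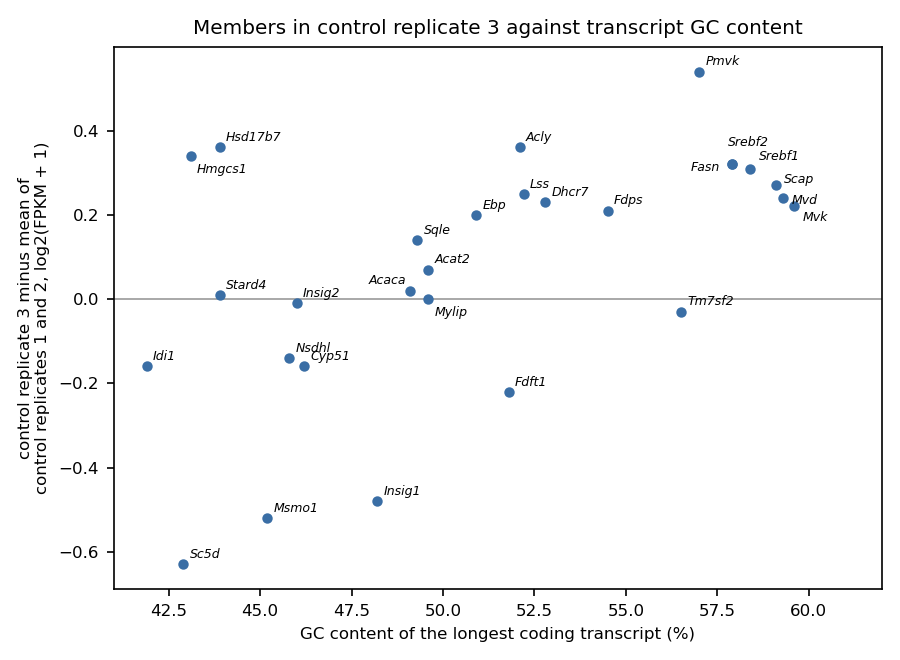
Difference of control replicate 3 from the mean of control replicates 1 and 2, in log2(FPKM + 1), against the GC content in percent of each member's longest coding transcript; each point is 1 of 28 members. Pmvk, Srebf2 and Fasn lie high at high GC content and Sc5d and Msmo1 low at low GC content, while Hmgcs1 and Hsd17b7 lie high at low GC content.

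Other genes of the pathway, in 5 lists of 42 genes outside the members, gave 0 calls in either direction among 39 tested, with 28 positive and 11 negative estimates and a median of 0.12. The positive share was 71.8%, against 54.4% of all tested genes. All TPPU values lay above all control values in 6 of the 39 and below them in 2. Among all tested genes the shares were 7.48% above and 7.88% below. Of 7 tested genes of further sterol steps, 6 had positive estimates. Tmem97, a sterol-regulated membrane protein, measured 50.7, 46.7 and 42.2 FPKM with TPPU, against 38.9, 35.6 and 41 FPKM in controls, a change of 0.27 (SE 0.1, limma adjusted p = 0.583) without overlap. Npc2, a lysosomal sterol carrier, measured 99.4 ± 5.5 FPKM with TPPU and 96.9 ± 11.2 FPKM in controls, and Hsd17b12, a fatty acid elongation reductase, 55.2 ± 4.76 FPKM and 54.6 ± 7.45 FPKM (SD, n = 3 each). Of 9 genes of the isoprenoid branch, 7 had positive estimates. Coq2, which attaches the isoprenoid tail of coenzyme Q, measured 17.5, 15.9 and 15.9 FPKM with TPPU and 13.7, 12.7 and 15.2 FPKM in controls. Its groups did not overlap. Nus1, a subunit of the enzyme that makes dolichol chains, measured 45 ± 3.92 FPKM with TPPU and 35.3 ± 14 FPKM in controls, with 19.3 FPKM in control replicate 3. Fnta, a subunit of protein prenyltransferases, measured 28.4 ± 3.46 FPKM with TPPU and 26.3 ± 5.34 FPKM in controls.

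Of 9 genes of SREBP processing and INSIG turnover, 5 had positive and 4 negative estimates. Erlin1 and Faf2 act in the degradation of endoplasmic reticulum proteins, and their groups overlapped. Erlin1 measured 24.3 ± 2.44 FPKM with TPPU and 19.8 ± 5.7 FPKM in controls, and Faf2 13.3 ± 1.07 FPKM and 13.7 ± 1.47 FPKM (SD, n = 3 each). Mbtps1, the first protease that cuts SREBP in the Golgi, was chosen after its values were seen. It measured 7.97, 7.33 and 7.74 FPKM with TPPU, against 9.02, 8.77 and 11 FPKM in controls. Every TPPU value lay below every control value, opposite to the lean of the members, and the change was -0.28 (SE 0.11, limma adjusted p = 0.609). Of 11 tested fatty acid genes that SREBP is known to act on, 9 had positive estimates. Scd2, a desaturase that makes oleic acid, averaged 123 ± 12.1 FPKM with TPPU and 103 ± 6.91 FPKM in controls (SD, n = 3 each), a change of 0.26 (SE 0.1, limma adjusted p = 0.596) without overlap. Fads1 and Fads2, the desaturases of polyunsaturated fatty acids, measured 87 ± 1.33 FPKM and 82.8 ± 7.71 FPKM with TPPU, against 84.1 ± 7.48 FPKM and 75.3 ± 4.21 FPKM in controls.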

How the data were processed

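Polyadenylated RNA of 6 RAW264.7 libraries, 3 with TPPU and 3 controls, was sequenced after Trizol extraction and dUTP strand marking, per the labels' protocols. The authors deposited 1 table of FPKM per gene symbol. The unit comes from the table's name and values, and the build, mm10, from the submitters' processing notes. The aligner, counter and annotation were not stated in the sources used here. The library names in the labels identified each column, and 0 other columns of per-sample values were present.

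The 9728 genes reaching 1 FPKM in 3 or more libraries entered 1 limma fit (version 3.58.1, R 4.3.3) on log2(FPKM + 1), a scale that understates the change of low genes. Group was its only term, the variance prior followed mean expression, and two-sided p-values received Benjamini-Hochberg adjustment over all of these genes, with a threshold of 0.05. For genes of the lists outside the members that fell under that minimum, a two-sided exact permutation test was used, whose smallest p is 0.1 for 3 against 3. Acat3 and Idi2, also under that minimum, were not tested. No count model was used. Depth was estimated as the number of fragments that makes low values of single-transcript genes whole, and 91.3% to 92.5% of them were whole within 0.1 of a fragment. GC content, length, exons and positions (1-based) came from GENCODE M21 (GRCm38), with GC content for 97.9% of tested genes, and promoters from RefSeq. The scripts were tested on simulated data.

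The members and lists were chosen with earlier results of these data known. All 28 members are named. Of each other list the 3 tested genes with the highest mean are named, with Ch25h, Abca1 and Lpl, except 1 gene that is not reported here. The alternatives were other pseudocounts (0.1 and 0.5), other filters (none, or mean FPKM of 5 or more), quantile normalization or median-of-ratios scaling, sample quality weights, limma with no trend, the replicate number as a block, removal of a loess trend (span 0.3) on GC content or length, each library left out, and both libraries lowest in mitochondrial transcripts left out. Other steps ran in Python 3.11.15 with pandas 2.3.3, numpy 2.4.6, scipy 1.17.1 and matplotlib 3.10.9.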

Additional observations from a re-analysis of the deposited data

How the results depend on the processing

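The count of members past the threshold was 0 under all 18 alternatives, with the smallest limma adjusted p of a member between 0.0858 and 0.988. The median change of the members ran from 0.07 to 0.12, and 20 to 24 of them were positive. Over all genes the count of 0 became 169 with sample quality weights (89 higher, 80 lower), 39 without both libraries lowest in mitochondrial transcripts (29 higher, 10 lower), and 0 to 5 when each library was left out, the 5 without TPPU replicate 1. Quality weights were 0.191 for control replicate 3 and 3.84 for control replicate 1. The cause of these counts was not tested. Of 502 member values under the alternatives, 468 kept their sign, and 34, in 13 members, did not. In the other 15 members, Acat2, Nsdhl, Tm7sf2, Acaca and Fasn among them, the sign held throughout. The signs turned for Lss (-0.02) and Scap (-0.01) with quantile normalization. They turned with quality weights for Cyp51 (-0.04), Msmo1 (-0.06), Sc5d (-0.1), Dhcr7 (0.0049) and Srebf2 (0.03). With the GC trend removed they turned for Sc5d (-0.0015), Dhcr7 (0.003) and Stard4 (-0.02), and without both low-mitochondrial libraries for Msmo1 (-0.06), Sc5d (-0.11), Srebf2 (0.02) and Insig1 (-0.0017). With each library left out in turn the change ran from -0.0041 to 0.11 for Cyp51, -0.09 to 0.05 for Dhcr7, -0.09 to 0.16 for Ebp, -0.05 to 0.25 for Insig1, -0.12 to 0.02 for Insig2, -0.04 to 0.09 for Lss and -0.09 to 0.18 for Msmo1. It ran from -0.0025 to 0.26 for Mvk, -0.03 to 0.17 for Mylip, -0.13 to 0.19 for Sc5d, -0.06 to 0.1 for Scap, -0.12 to 0.05 for Srebf2 and -0.01 to 0.12 for Stard4. Deviations of same-numbered libraries from their group means had correlations of -0.301, 0.154 and -0.399 for replicates 1, 2 and 3. Such deviations cancel within a group and include library-wide trends, so they cannot show whether the replicate numbers pair the samples. With the replicate block 0 genes and 0 members passed and the median stayed at 0.09. With 3 libraries per group and an SE of 0.09 to 0.17 for the members, differences of the size seen here could not be told from 0, which does not show that they are absent.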

Other observations

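Genes of sterol export and of the sterol sensor LXR were low or divided. Abca1, the transporter that hands cholesterol to lipid-poor apolipoprotein, measured 1.88, 1.34 and 1.88 FPKM in TPPU replicates 1 to 3, against 2.11, 2.34 and 2.43 FPKM in control replicates 1 to 3. The groups did not overlap, with TPPU the lower, and the change was -0.29 (SE 0.14, limma adjusted p = 0.63). Abcg1, which exports cholesterol to lipoprotein particles and is likewise a known LXR target, lay the other way, at 15, 12.5 and 12.3 FPKM with TPPU and 10.6, 10.2 and 12 FPKM in controls (change 0.25, SE 0.12, limma adjusted p = 0.627). Neither passed, and their difference from each other was not tested. Nr1h2, which encodes LXR beta, measured 16 ± 0.822 FPKM with TPPU and 18.4 ± 3.91 FPKM in controls (SD, n = 3 each). Nr1h3, which encodes LXR alpha, was under the filter, at 0.541 to 0.721 FPKM with TPPU and 0.689 to 0.833 FPKM in controls, with a two-sided exact permutation p of 0.2.

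Ch25h, which makes 25-hydroxycholesterol and is known as a gene that activated macrophages induce, was listed at 0 in 5 libraries and at 0.0949 FPKM in TPPU replicate 2. In these libraries 3 fragments on a 1 kb transcript would give 0.131 to 0.168 FPKM. Lpl, lipoprotein lipase, measured 36.9, 37.4 and 39.8 FPKM with TPPU, against 28.6, 28.5 and 25.6 FPKM in controls. Its change of 0.45 (SE 0.09, limma adjusted p = 0.339) was larger than that of any member, and its adjusted p ran from 0.0232 to 0.933 over the alternatives.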
